A study of Mus musculus with 20 samples.

Results

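The Arf and p53 pathway was followed through 9 genes: Cdkn2a, Trp53, Mdm2, Mdm4, Cdkn1a, Ccng1, Phlda3, Zmat3 and Eda2r. These genes and the lists below were chosen by name, with earlier results of these data known. Their counts of calls, set beside the shares of all genes, are therefore descriptions. All 9 were found among the 37620 genes of the count table, and all 9 were among the 17824 genes that passed the filter on low counts. RNA came from mouse cells of the C57BL/6 background enriched on magnetic beads for B220, the B cell form of the surface protein CD45. The normal group held 4 samples of normal spleen, the vector group 8 VavPBcl2 lymphomas transduced with an empty vector, and the Myc group 8 VavPBcl2 lymphomas transduced with Myc. Both lymphoma groups therefore carried the VavPBcl2 transgene, in which Vav regulatory sequence drives the apoptosis inhibitor Bcl2 in blood cells, and the normal group is not described as carrying it. Ages are not given in the labels. They do not say whether the replicates of a group are different mice. Each p-value is thus set by the variation among these libraries, which may be technical.

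Arf, a product of the Cdkn2a locus, is known to bind and hold back Mdm2, the ubiquitin ligase that marks the transcription factor p53 (encoded by Trp53) for degradation. Oncogenic Myc is a known inducer of Arf in B cells, and loss of Arf or p53 is a frequent event in mouse lymphomas driven by Myc. p53 is controlled largely as a protein, which was not measured here. Its targets include inhibitors of its own pathway, such as Mdm2 and Ccng1, and effectors of cell cycle arrest and apoptosis.

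Between 28.7 and 56.3 M counts (M for 1000000) per sample were assigned to genes. The labels give run numbers but no run dates, so runs were split at the largest gap in run number of each instrument. Lower numbers are called earlier runs here and higher numbers later runs. By this split all 8 Myc lymphomas, vector replicates 7 and 8 and normal replicates 2 to 4 were of earlier runs. Vector replicates 1 to 6 and normal replicate 1 were of later runs. Vector replicates 7 and 8 are also the only vector samples of their title series, so run and title series cannot be told apart within that group. Run and group overlap, and values within the earlier runs stand beside the results. Levels are given as CPM, counts per 1000000 of a library size that was scaled between libraries by TMM. Myc replicate 5 stood apart, at 190.9 on the first principal component of log2 CPM against 97.1 for the next sample. It held 34.4 M gene counts, and the scaling set its library size to 23.25 M, which raises its CPM values. All 9 B cell markers had counts in all 3 groups, with a summed level of 13126.3 to 15672.5 CPM in normal samples, 15642.5 to 24772.2 CPM in vector lymphomas and 3387.6 to 16134.7 CPM in Myc lymphomas. In bulk RNA, fewer cells of a type and less RNA per cell cannot be told apart.

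Myc lymphomas held more RNA of Cdkn2a, Trp53 and the p53 targets Cdkn1a, Phlda3, Zmat3 and Eda2r than vector lymphomas, and less of Mdm2. Cdkn2a rose in steps, from 0.447 ± 0.238 CPM (SD, n = 4) in normal cells to 2.28 ± 0.882 CPM (n = 8) in vector and 7.06 ± 2.06 CPM (n = 8) in Myc lymphomas, and no 2 of these groups overlapped. Of the 9 genes, 6 rose, 1 fell and 2 did not pass the test between Myc and vector lymphomas, where 26.6% of all tested genes rose and 21.9% fell (48.6% in either direction; edgeR's quasi-likelihood test, Benjamini-Hochberg adjusted p under 0.05). Within the earlier runs, where only 2 vector samples remain, Zmat3 and Eda2r alone among the 9 passed, both rising, where 2.97% of genes rose and 4.4% fell (7.37% in either direction). Eda2r passed the filter on low counts through its Myc samples alone and so had to differ; of the other 8 genes, 5 rose and 1 fell. Myc itself rose between these groups, from 118.2 ± 65.6 to 979.5 ± 408.9 CPM (n = 8 each), a log2 fold change of 3.05 ± 0.35 (SE). The single count for Myc does not separate the transduced copy from the mouse's own.

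**Figure D1:**
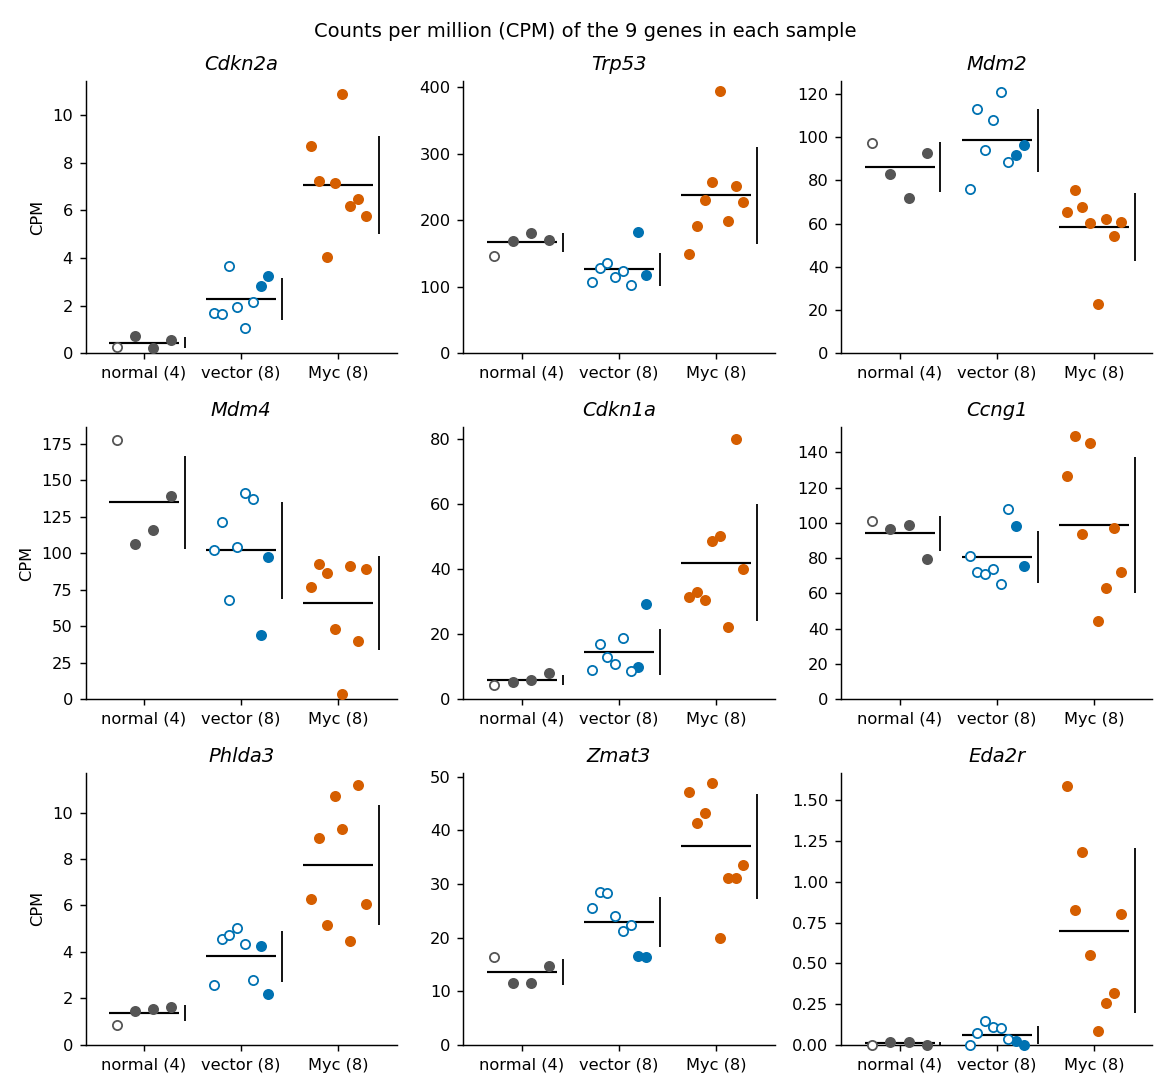
Each point is the CPM of 1 sample, on a linear axis from 0, for normal (4), vector (8) and Myc (8) samples. Open points are later runs, filled points earlier runs, horizontal lines means and vertical lines 1 SD to each side (cut at 0). Cdkn2a climbed from at most 0.725 CPM in normal cells to at least 4.04 CPM in Myc lymphomas, while all Mdm2 values of the Myc group lay below 76.0 CPM, the lowest vector value.

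Cdkn2a (ENSMUSG00000044303) encodes Ink4a, an inhibitor of cyclin D-dependent kinases, and Arf from separate first exons and promoters. The table has 1 count per gene, so the transcripts of Ink4a and Arf were not told apart. The 2 promoters, from RefSeq windows on GRCm38.p6, are shown because the count sums over both. Capitals mark the motif TTTNNCGC, which E2F factors can bind, searched on both strands.
Arf promoter, chr4:89294654-89294869, minus strand: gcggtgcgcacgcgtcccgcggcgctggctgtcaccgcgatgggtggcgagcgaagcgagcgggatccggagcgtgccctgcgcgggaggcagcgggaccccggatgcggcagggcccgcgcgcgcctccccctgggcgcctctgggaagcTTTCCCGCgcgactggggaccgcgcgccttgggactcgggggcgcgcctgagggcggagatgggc
Ink4a promoter, chr4:89282193-89282442, minus strand: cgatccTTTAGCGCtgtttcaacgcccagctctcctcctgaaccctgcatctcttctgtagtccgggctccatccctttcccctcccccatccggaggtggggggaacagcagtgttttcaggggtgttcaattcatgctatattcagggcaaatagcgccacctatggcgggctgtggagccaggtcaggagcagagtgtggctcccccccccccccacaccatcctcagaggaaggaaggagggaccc
The motif stood 99 to 92 bases before the RefSeq start of the Arf transcript (TTTCCCGC) and 244 to 237 bases before that of Ink4a (TTTAGCGC). It was present in 5.17% of 32851 promoter windows of 250 bases before to 50 bases after a start, so its presence is a description and says nothing of binding.

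In the normal samples Cdkn2a was at 0.28, 0.725, 0.22 and 0.564 CPM. The vector lymphomas ran from 1.08 CPM through a median of 2.06 to 3.65, and the Myc lymphomas from 4.04 through 6.81 to 10.9. Every vector sample thus lay above every normal sample, and every Myc sample above every vector sample. Against normal cells Cdkn2a rose by a log2 fold change of 2.34 ± 0.40 in vector lymphomas (adjusted p = 0.00069, edgeR) and by 3.97 ± 0.43, or 15.7-fold, in Myc lymphomas (adjusted p = 1.7e-06). Groups that lay wholly above the normal samples were seen for 7.33% of genes in vector and for 13.1% in Myc lymphomas. Both rises passed within the earlier runs (2.6, adjusted p = 0.033, and 3.83, adjusted p = 0.00026). Between Myc and vector lymphomas the log2 fold change was 1.63 ± 0.29 (3.09-fold, adjusted p = 0.00013), where 5.12% of genes had all Myc samples above all vector samples. In the earlier runs it was 1.23 (adjusted p = 0.12), where vector replicates 7 and 8 held 2.83 and 3.24 CPM, among the higher vector values. Even the highest level was low: per kilobase of exon, the median in Myc lymphomas was 5.81 CPM for Cdkn2a and 56.6 CPM for Trp53.

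Of the genes beside Cdkn2a, Cdkn2b passed no test and Mtap was lowest in vector lymphomas. Cdkn2b, which encodes the related inhibitor Ink4b, held 0.479 ± 0.197 CPM in normal cells (n = 4), 0.951 ± 0.417 CPM in vector lymphomas and 0.812 ± 0.443 CPM in Myc lymphomas (n = 8 each) and passed no test (adjusted p from 0.22 to 0.63, edgeR). Mtap, an enzyme of methionine salvage, held 20.3 ± 5.26 CPM in vector lymphomas against 32.5 ± 4.61 in normal and 47.2 ± 7.42 in Myc samples. Its rise from vector to Myc lymphomas was without overlap, as for 5.12% of genes. The log2 fold change was 1.22 ± 0.16 (adjusted p = 5.3e-06, edgeR). It also passed in the earlier runs (0.93, adjusted p = 0.028). Of the 4 other Ink4 and Cip/Kip inhibitors found in the table, 1 rose and 2 fell between Myc and vector lymphomas, where 48.6% of all genes were called, and 0 passed in the earlier runs. Cdkn2c (Ink4c) rose from 12.6 ± 2.69 CPM in normal cells to 28.8 ± 8.07 in vector lymphomas (log2 fold change 1.19 ± 0.23, adjusted p = 0.0021, edgeR; 0.94, adjusted p = 0.23, in the earlier runs) and was 20.6 ± 4.53 CPM in Myc lymphomas.

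Trp53 (ENSMUSG00000059552) encodes p53. Its promoter is shown with the palindrome CACGTG in capitals, an E-box that Myc with its partner Max can bind, 10 to 15 bases after the RefSeq start. Of the 32851 windows, 7.15% hold CACGTG.
Trp53 promoter, chr11:69580229-69580380, plus strand: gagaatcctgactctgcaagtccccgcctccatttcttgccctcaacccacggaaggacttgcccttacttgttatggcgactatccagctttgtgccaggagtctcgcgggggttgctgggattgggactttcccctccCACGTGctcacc
Among the other members with a promoter window, Eda2r held the same letters 44 to 49 bases after its start.

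The normal samples held 145.8, 169.3, 181.3 and 169.6 CPM of Trp53. Vector lymphomas ran from 102.9 CPM through 120.5 to 181.8, and Myc lymphomas from 148.6 through 229.0 to 394.4. The Myc and vector ranges overlapped through 1 vector sample, replicate 7 at 181.8 CPM, and the highest value was that of Myc replicate 5. Trp53 rose between vector and Myc lymphomas by a log2 fold change of 0.91 ± 0.17 (1.88-fold, adjusted p = 0.00022, edgeR), and by 0.77 without Myc replicate 5 (adjusted p = 1e-04). Within the earlier runs the difference was 0.67 (adjusted p = 0.22). Against normal cells neither lymphoma group passed: the log2 fold change was -0.40 ± 0.20 in vector (adjusted p = 0.24) and 0.51 ± 0.21 in Myc lymphomas (adjusted p = 0.057). The call against normal cells in Myc lymphomas rests on single libraries, since it passed without vector replicate 7 (0.043), Myc replicate 1 (0.025) or Myc replicate 2 (0.045).

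Mdm2 (ENSMUSG00000020184), the ubiquitin ligase and itself a p53 target, fell in Myc against vector lymphomas. The targets Cdkn1a, Phlda3 and Zmat3 rose there, and Ccng1 did not pass. Of 38 other p53 targets, 12 rose and 11 fell, where 26.6% of all genes rose and 21.9% fell. Mdm2 held 97.4, 82.8, 71.8 and 92.7 CPM in normal samples. Vector lymphomas ran from 76.0 CPM through 95.2 to 121, and Myc lymphomas from 22.7 through 61.5 to 75.4. Every Myc sample lay below every vector sample, narrowly at the edge, as 6.38% of genes did. Mdm2 fell between vector and Myc lymphomas, with a log2 fold change of -0.75 ± 0.18 (0.594-fold, adjusted p = 0.0016, edgeR), and of -0.63 without Myc replicate 5, the lowest sample (adjusted p = 7.5e-05). With a run term the call was lost (adjusted p = 0.065), and in the earlier runs the change was -0.67 (adjusted p = 0.22), with vector replicates 7 and 8 at 91.8 and 96.3 CPM. Against normal cells Mdm2 was 0.679-fold in Myc lymphomas (log2 fold change -0.56 ± 0.21, adjusted p = 0.039), a call lost without any 1 of the 4 normal samples (adjusted p up to 0.15) and in the earlier runs (-0.46, adjusted p = 0.23). Vector lymphomas did not pass against normal cells (0.19 ± 0.22, adjusted p = 0.63).

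Since Trp53 and Mdm2 moved apart, their counts were set against each other within each library, a measure chosen after the values were seen and given with no test. Normal samples held 0.668, 0.489, 0.396 and 0.547 Mdm2 counts for each Trp53 count. The ratio ran from 0.505 through 0.841 to 0.979 in vector lymphomas and from 0.0576 through 0.28 to 0.44 in Myc lymphomas. The lymphoma groups did not overlap, as they already did not for Mdm2 alone, and no share over other pairs of genes was computed. The vector sample nearest to the Myc range was replicate 7 of the earlier runs, and replicate 8 of those runs had 0.821.

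**Figure D2:**
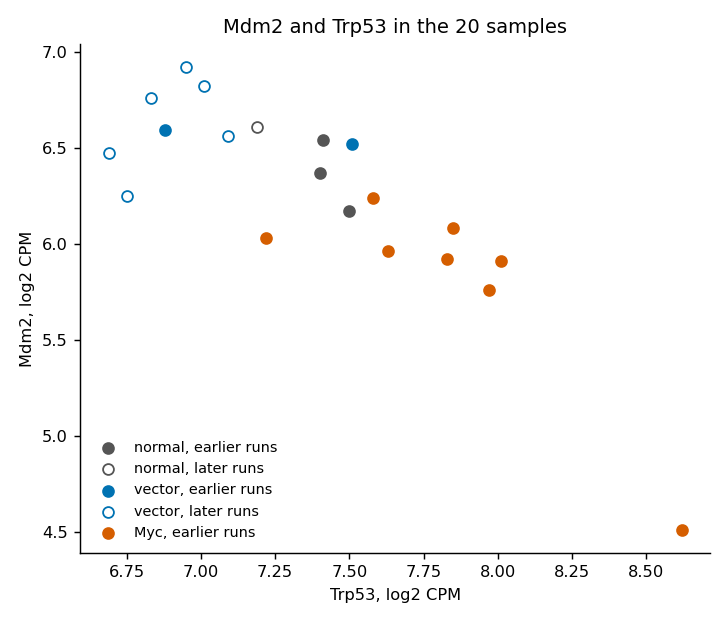
Each point is 1 sample, with log2 CPM of Trp53 on the x axis and of Mdm2 on the y axis; colours are groups and open points later runs. Myc lymphomas lie to the lower right, Myc replicate 5 farthest (Mdm2 4.51), and vector lymphomas to the upper left.

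Mdm4 (ENSMUSG00000054387), a relative of Mdm2 that binds p53 and blocks its activity, was at 178.0, 106.4, 115.9 and 139.4 CPM in normal samples. It ran from 44.2 CPM through 103.2 to 141.4 in vector and from 3.7 through 81.8 to 92.5 in Myc lymphomas. All Myc samples lay below all normal samples, as for 14.3% of genes, yet the log2 fold change of -1.03 ± 0.45 did not pass (adjusted p = 0.072, edgeR). Without Myc replicate 5, at 3.7 CPM the lowest of all 20, it was -0.82 and passed (adjusted p = 0.018). Myc and vector lymphomas overlapped (-0.63 ± 0.38, adjusted p = 0.18), and in the earlier runs the difference was -0.09 (adjusted p = 0.96).

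Cdkn1a (ENSMUSG00000023067) encodes the kinase inhibitor p21, the classical arrest effector of p53. The upstream of its 2 promoter windows is shown with a pair of CATG cores and the bases between them in capitals, spaced as in a full p53 site, 48 to 35 bases before that start. A pair of cores so spaced stands in 0.712% of windows.
Cdkn1a upstream promoter, chr17:29090839-29090978, plus strand: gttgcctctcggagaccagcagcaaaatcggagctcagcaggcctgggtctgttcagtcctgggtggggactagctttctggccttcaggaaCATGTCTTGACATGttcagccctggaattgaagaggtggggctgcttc
A p53 half-site, matched by its standard consensus on both strands, was in 8.36% of windows and in those of Mdm2, Ccng1, Trp53 and Cdkn1a; the capitals above overlap 1 of the 2 half-sites of Cdkn1a. The windows of Phlda3, Mdm4, Eda2r and Cdkn2a held no match to these letters.

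The normal samples held 4.36, 5.21, 5.8 and 7.94 CPM of Cdkn1a. Vector lymphomas ran from 8.6 CPM through 11.8 to 29.4, and Myc lymphomas from 22.3 through 36.5 to 80.1. All lymphomas of either kind lay above all normal samples, as for 7.33% of genes in vector and 13.1% in Myc lymphomas. The lymphoma groups overlapped through vector replicate 8 (29.4 CPM) and Myc replicate 6 (22.3 CPM). Cdkn1a rose in Myc over vector lymphomas by a log2 fold change of 1.53 ± 0.28 (2.89-fold, adjusted p = 0.00017, edgeR; 1.09, adjusted p = 0.18, in the earlier runs). Over normal cells it rose by 1.32 ± 0.35 in vector lymphomas (adjusted p = 0.018), where the call was lost without normal replicate 1 (adjusted p = 0.06) and in the earlier runs (1.67, adjusted p = 0.17). In Myc lymphomas it rose 7.22-fold over normal cells (2.85 ± 0.39, adjusted p = 1.7e-05), also in the earlier runs (2.76, adjusted p = 0.0012). In GENCODE vM21, 273 of the 3553 exon bases of Cdkn1a lie under an antisense gene, whose reads cannot be told apart where counting ignores strand.

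Phlda3 (ENSMUSG00000041801), a p53 target that blocks the kinase Akt at the membrane, followed the same order. It was at 0.859, 1.45, 1.56 and 1.61 CPM in normal samples. It ran from 2.2 CPM through 4.3 to 5.04 in vector and from 4.49 through 7.59 to 11.2 in Myc lymphomas. The lymphomas all lay above the normal samples, as for 7.33% of genes in vector and 13.1% in Myc lymphomas. Only Myc replicate 6 (4.49 CPM) fell within the vector range. The log2 fold change was 1.02 ± 0.24 for Myc over vector lymphomas (adjusted p = 0.0019, edgeR; 1.28, adjusted p = 0.085, in the earlier runs, and adjusted p = 0.078 with a run term), 1.48 ± 0.32 for vector over normal (adjusted p = 0.0047; 1.08, adjusted p = 0.42) and 2.50 ± 0.34 for Myc over normal (adjusted p = 1.7e-05; 2.36, adjusted p = 0.0015).

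Zmat3 (ENSMUSG00000027663) encodes a zinc finger RNA-binding protein and is a p53 target. Normal samples were at 16.4, 11.6, 11.6 and 14.7 CPM. It ran from 16.4 CPM through 23.2 to 28.5 in vector lymphomas and from 20 through 37.4 to 48.9 in Myc lymphomas. The 2 vector samples of the earlier runs were the lowest of their group, at 16.6 and 16.4 CPM, and within the Myc group replicate 5 alone lay inside the vector range. Zmat3 rose in Myc over vector lymphomas in all samples (log2 fold change 0.70 ± 0.18, adjusted p = 0.0029, edgeR) and in the earlier runs (1.18, adjusted p = 0.043). It rose over normal cells in Myc lymphomas (1.45 ± 0.23, adjusted p = 8.3e-05; 1.59, adjusted p = 0.0025, in the earlier runs). The rise in vector lymphomas (0.75 ± 0.22, adjusted p = 0.031) was lost without normal replicate 2, 3 or 4 or vector replicate 2 or 3 (adjusted p up to 0.11), and was 0.40 in the earlier runs (adjusted p = 0.88).

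Eda2r (ENSMUSG00000034457), an X-linked receptor of the tumour necrosis factor receptor family and a p53 target, was the rarest member. The normal samples held 0, 1, 1 and 0 counts and the vector lymphomas 0, 2, 6, 5, 5, 2, 1 and 0 in the order of their replicates. Myc lymphomas held 60, 28, 49, 22, 2, 8, 15 and 36 counts, or 0.086 to 1.59 CPM with a median of 0.677. Only Myc replicate 5 fell within the vector range, whose highest value was 0.147 CPM. Since no normal or vector sample reached the level of the filter on low counts, the tests of Eda2r describe a gene that was let in by its Myc samples. Over vector lymphomas the log2 fold change was 3.47 ± 0.67 (adjusted p = 0.00033, edgeR; adjusted p = 0.028 in the earlier runs, where the vector samples held 1 and 0 counts). In a fit of the Myc and vector samples alone Eda2r did not pass that filter and was not tested. Summed over libraries, 220 counts stood against 21, a ratio of rates of 12.2 (exact 95% interval 7.77 to 20.1, covering counting error only). Against 2 counts in normal samples the ratio was 79.4 (21.7 to 659.8) for Myc lymphomas (adjusted p = 0.00035) and 6.52 (1.59 to 57.4) for vector lymphomas (adjusted p = 0.16). Sex was mixed by group: both Y-linked genes examined reached 5 CPM in 6 of the 8 vector lymphomas, 5 of the 8 Myc lymphomas and 0 of the 4 normal samples, and the part of sex in the level of Eda2r was not tested.

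Ccng1 (ENSMUSG00000020326), a p53 target encoding cyclin G, which feeds back on Mdm2, passed no comparison. Normal samples held 101.3, 96.5, 99.0 and 79.6 CPM. Vector lymphomas ran from 65.3 CPM through 74.7 to 108.0, and Myc lymphomas from 44.3 through 95.5 to 149.3. The Myc group covered the whole range of the others. The log2 fold change for Myc over vector lymphomas was 0.30 ± 0.20 (adjusted p = 0.24, edgeR) and 0.41 without Myc replicate 5 (adjusted p = 0.053). Against normal cells it was -0.22 ± 0.25 in vector (adjusted p = 0.63) and 0.07 ± 0.25 in Myc lymphomas (adjusted p = 0.83), the latter -0.08 with total-count scaling.

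Against normal cells, 4 of the 9 genes rose and 0 fell in vector lymphomas, where 7.46% of tested genes rose, 3.36% fell and 10.8% were called in either direction. In the earlier runs 1 of the 9 rose, Cdkn2a, against 0.621% of genes. In Myc lymphomas 5, Eda2r among them, rose and 1 fell against normal cells, where 21.5% of genes rose and 17.9% fell (39.4% in either direction), and 5 rose in the earlier runs against 12.7% of genes. These 3 comparisons share samples and are not independent of each other.

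**Figure D3:**
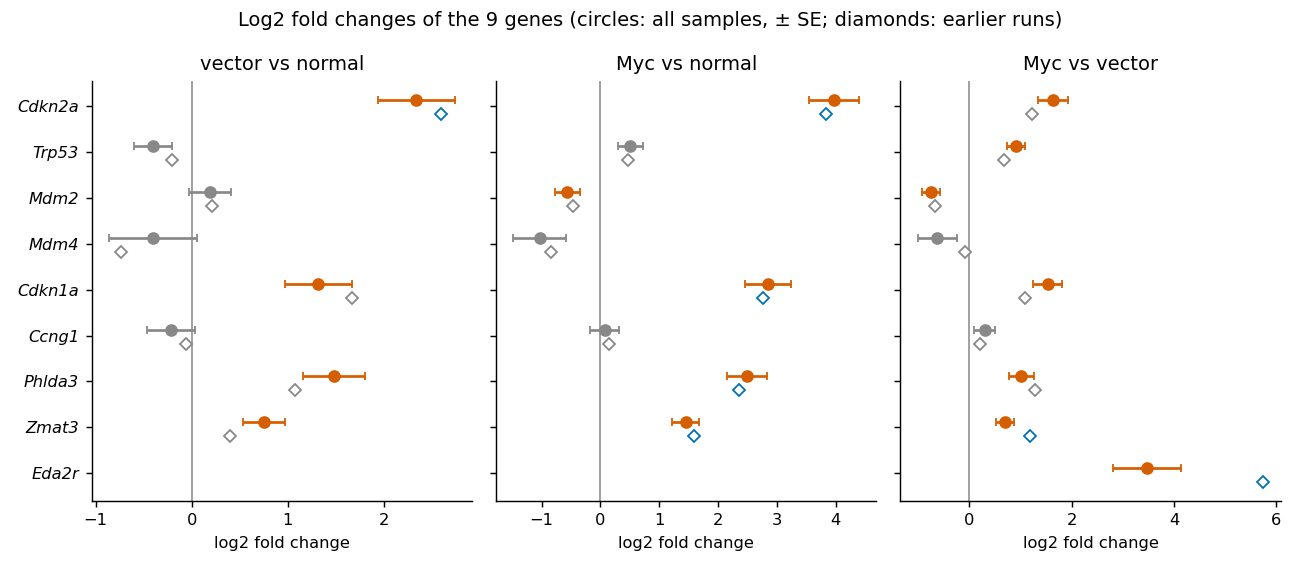
Log2 fold changes in the 3 comparisons. Circles with bars are estimates ± SE from all samples (orange where the adjusted p is under 0.05, grey otherwise), and diamonds are estimates from the earlier runs (blue where under 0.05); Eda2r against normal cells is left out because those samples held 2 counts. Cdkn2a, Cdkn1a, Phlda3 and Zmat3 lie right of 0 in all panels, and Mdm2 lies left of 0 in both panels with Myc lymphomas.

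Within the groups the members varied by different amounts. The SD of log2 CPM in Myc lymphomas was 1.57 for Mdm4, 1.19 for Eda2r, 0.62 for Ccng1, 0.57 for Cdkn1a and 0.41 for Trp53, against a median of 0.68 over all tested genes. Without Myc replicate 5 it was 0.50 for Mdm4 and 0.15 for Mdm2 (0.54 with it), against a median of 0.47. Of 90 relations among the members and Myc within the 8 vector or the 8 Myc samples, 0 had an adjusted p under 0.05 by Pearson or Spearman correlation, and 18 had an unadjusted Pearson p under 0.05 (exact permutation, two-sided). Cdkn1a and Phlda3 in Myc lymphomas had r = 0.85 (exact permutation p = 0.0067, adjusted p = 0.14) and rho = 0.90 (exact permutation p = 0.0046, adjusted p = 0.21), with r = 0.71 without the 2 samples farthest from the median of Cdkn1a. In vector lymphomas the same pair had r = -0.15. With the other target members in Myc lymphomas, Cdkn1a had r = 0.01 (Ccng1), -0.28 (Zmat3), -0.36 (Eda2r) and -0.41 (Mdm2). Some other target pairs had higher values there. Ccng1 and Zmat3 had r = 0.89 (0.78 without Myc replicate 5), and Zmat3 and Eda2r 0.87 (0.7 without it). Trp53 and Mdm2 had r = -0.84 there, and -0.51 without that sample. Mdm2 and Mdm4 had r = 0.98 there, and 0.73 without Myc replicate 5. Myc and Cdkn2a had r = -0.57 in Myc lymphomas (exact permutation p = 0.14, adjusted p = 0.40; rho = -0.48, exact permutation p = 0.24, adjusted p = 0.60), and r = -0.05 without Myc replicate 5.

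The genes most like each member, by Pearson r of log2 CPM over 20 samples after group means were subtracted, were sought among 10685 genes with a mean of at least 5 CPM. Cdkn2a was most like Cks1b (r = 0.80) and Ube2t (0.78), Trp53 like Nudt16l1 (0.92) and Cox6a1 (0.90), and Cdkn1a like Tbc1d2 and Scnn1a (both 0.82). Mdm4 was most like Jmjd1c and Otud4 (both 0.99; 0.95 and 0.96 without Myc replicate 5), and Mdm2 like Tent4b (0.95) and Taf4 (0.94), which had 0.77 and 0.73 without it. Ccng1 was most like Nudcd1 (0.95) and Papola (0.92), Phlda3 like Sf3a2 (0.77) and Spata2l (0.71), Zmat3 like Sf3a1 and Cbx6 (both 0.93), and Eda2r like Slc25a42 (0.87) and Oxnad1 (0.82).

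Of 38 other p53 targets, 12 rose, 11 fell and 15 did not pass between Myc and vector lymphomas, or 60.5% called against 48.6% of all genes (26.6% rose and 21.9% fell). Their median log2 fold change was -0.06 against 0.08 over all genes. Within the earlier runs 3 rose and 2 fell, or 13.2% called against 7.37%. Those that rose included Psrc1 (1.97 ± 0.23, adjusted p = 1.4e-06, edgeR) and Ckap2 (1.2 ± 0.18, adjusted p = 2.9e-05, and 1.02, adjusted p = 0.092, in the earlier runs), which encode spindle proteins. The apoptosis effector Bax also rose (0.96 ± 0.26, adjusted p = 0.0048). Its log2 fold change was 0.59 without Myc replicate 5 (adjusted p = 0.0034) and 0.76 in the earlier runs (adjusted p = 0.37). Fas, the death receptor, fell from 47.4 ± 17.6 CPM in vector to 7.12 ± 3.17 CPM in Myc lymphomas (n = 8 each; -2.73 ± 0.29, adjusted p = 3.7e-07) and also in the earlier runs (-3.00, adjusted p = 0.00047). Ptpn14, a phosphatase, fell from 18.3 ± 5.34 to 3.21 ± 0.814 CPM (-2.51 ± 0.21, adjusted p = 2.5e-08; -2.47, adjusted p = 0.00032, in the earlier runs). Of the BH3-only genes, Bbc3 (Puma) had 0.35 ± 0.22 (adjusted p = 0.20) and Pmaip1 (Noxa) -1.09 ± 0.47 (adjusted p = 0.058). Against normal cells, 8 of these targets rose and 2 fell in vector lymphomas (26.3% called against 10.8% of all genes; 1 and 0 in the earlier runs). In Myc lymphomas 14 rose and 6 fell (52.6% against 39.4%; 10 and 3 in the earlier runs).

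**Figure D4:**
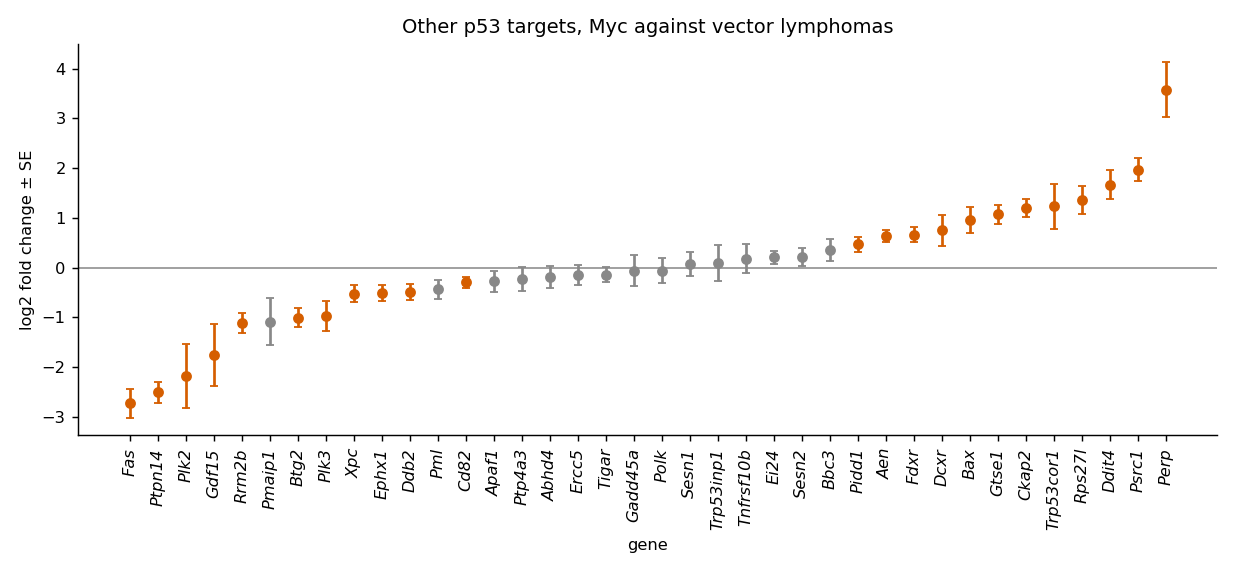
Log2 fold change ± SE of the 38 other p53 targets between Myc and vector lymphomas, ordered by value, with orange points where the adjusted p is under 0.05. The 12 that rose and the 11 that fell lie on either side of 0, with Fas at -2.73 at the lower end.

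Among 32 regulators of p53, 7 rose, 10 fell and 15 did not pass between Myc and vector lymphomas, and the 53.1% called lies near the 48.6% of all genes. In the earlier runs 3 rose and 0 fell, or 9.38% against 7.37%. Smyd2, a methyltransferase that acts on p53, rose from 8.43 ± 2.02 to 63.4 ± 18 CPM (n = 8 each). Its 2 lymphoma groups did not overlap, as for 5.12% of genes that rose so. The log2 fold change was 2.91 ± 0.18 (adjusted p = 1.1e-09, edgeR), and 2.82 in the earlier runs (adjusted p = 0.00034). The methyltransferase Prmt5 rose by 0.97 ± 0.14 (adjusted p = 2.2e-05) and the checkpoint kinase Chek1 by 1.03 ± 0.21 (adjusted p = 0.00063), both also in the earlier runs (adjusted p = 0.042 and 0.037). Ppp1r13b, a p53 cofactor of apoptosis, fell with a log2 fold change of -1.21 ± 0.19 (adjusted p = 4.8e-05; -0.57, adjusted p = 0.26, in the earlier runs). The phosphatase Ppm1d had -0.35 ± 0.13 (adjusted p = 0.030), which was 0.01 in the earlier runs (adjusted p = 0.99). Usp7, the deubiquitinase of Mdm2 and p53, had -0.22 ± 0.18 (adjusted p = 0.31), and Wrap53, which lies antisense to Trp53, 0.19 ± 0.19 (adjusted p = 0.42). Against normal cells, 1 regulator rose in vector lymphomas (3.12% called against 10.8%; 0 in the earlier runs), and 10 rose and 6 fell in Myc lymphomas (50% against 39.4%; 6 and 1 in the earlier runs).

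Of 23 tested regulators and partners of Arf, 4 rose, 10 fell and 9 did not pass between Myc and vector lymphomas, or 60.9% called against 48.6% of all genes, of which 26.6% rose and 21.9% fell. Of the 23, 0 rose and 2 fell in the earlier runs, or 8.7% against 7.37%. Npm1, the nucleolar partner that holds Arf, rose from 278.4 ± 43.9 to 629.3 ± 192.0 CPM (n = 8 each). Its Myc samples all lay above its vector samples, as for 5.12% of genes. The log2 fold change was 1.18 ± 0.18 (adjusted p = 2.2e-05, edgeR), and 1.16 in the earlier runs (adjusted p = 0.065). The Polycomb genes Cbx8 (-1.33 ± 0.16, adjusted p = 2.3e-06), Cbx7 (-1.24 ± 0.21, adjusted p = 9.6e-05) and Bmi1 (-0.57 ± 0.20, adjusted p = 0.026), whose products are known to repress Cdkn2a, fell. The Polycomb genes Ezh2 (0.20 ± 0.14, adjusted p = 0.26) and Rnf2 (-0.10 ± 0.21, adjusted p = 0.71), of the same list and named after their values were seen, did not pass. In the earlier runs Cbx8 passed (-1.11, adjusted p = 0.017), while Cbx7 (-0.88, adjusted p = 0.13) and Bmi1 (-0.50, adjusted p = 0.46) did not. Jund fell (-1.88 ± 0.27, adjusted p = 1.6e-05; -1.57, adjusted p = 0.034, in the earlier runs). The activator E2f1 rose (0.65 ± 0.17, adjusted p = 0.0030), and in the earlier runs its log2 fold change was 0.88 (adjusted p = 0.083). Against normal cells, 3 of the 23 rose and 0 fell in vector lymphomas (13.0% called against 10.8%; 0 in the earlier runs), and 7 rose and 7 fell in Myc lymphomas (60.9% against 39.4%; 7 and 2 in the earlier runs).

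Of 11 ribosomal proteins known to bind Mdm2, 9 rose and 0 fell between Myc and vector lymphomas, with a median log2 fold change of 1.24, where 26.6% of all genes rose. Without Myc replicate 5, 6 rose, and in the earlier runs, where 2.97% of all genes rose, 0 passed with a median of 0.96. Rpl11 had 0.99 ± 0.34 (adjusted p = 0.022, edgeR; 0.081 without Myc replicate 5) and Rpl5 0.41 ± 0.23 (adjusted p = 0.13). Against normal cells 0 passed in vector lymphomas and 7 rose in Myc lymphomas, where 21.5% of all genes rose (1 in the earlier runs, against 12.7%). Reads aligned to more than 1 place were set apart from the gene counts, at 14.25 to 40.33% of reads, so ribosomal protein genes, which have many processed copies, may have lost reads.

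Of the p53 family, Trp73, which encodes p73, was highest in vector lymphomas. It held 0.343 ± 0.132 CPM in normal (n = 4), 6.18 ± 2.05 in vector and 0.595 ± 0.454 in Myc samples (n = 8 each). It rose from normal to vector (4.16 ± 0.57, adjusted p = 1e-04, edgeR) and fell from vector to Myc lymphomas (-3.37 ± 0.41, adjusted p = 2e-06). Both changes were without overlap, as for 7.33% of genes in the first direction and 6.38% in the second. Both passed in the earlier runs (4.15, adjusted p = 0.035, and -3.54, adjusted p = 0.0022). Myc lymphomas did not pass against normal cells (0.80, adjusted p = 0.20). Trp63 did not pass the filter on low counts over all samples, at 0.105 CPM in vector and 0.40 CPM in Myc lymphomas.

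RNA of markers of other cells and of immediate-early genes, which can respond to handling, also differed between the groups. Between Myc and vector lymphomas, 8 of 9 B cell markers and 11 of 11 immediate-early genes fell, where 21.9% of all genes fell. Where 26.6% of all genes rose, 6 of 7 NK cell markers, 6 of 9 neutrophil markers and 13 of 13 mitochondrially encoded genes rose. Of 6 plasmacytoid dendritic cell markers, 5 rose and 1 fell. Within the earlier runs 2.97% of all genes rose and 4.4% fell. There 3 B cell markers and 5 immediate-early genes fell, and 3 NK cell and 3 plasmacytoid dendritic cell markers rose. In the same runs 0 neutrophil markers and 0 mitochondrially encoded genes passed. The summed neutrophil markers were 80.0 to 907.2 CPM in normal, 55.2 to 5822.2 in vector and 1658.8 to 16564.0 in Myc samples. The 8 erythroid markers summed to 218.2 to 3313.0, 3693.7 to 19597.9 and 5428.1 to 85612.6 CPM, with Myc replicate 5 highest. The mitochondrial genes summed to 6461.5 to 54724.0, 3113.7 to 78102.5 and 61614.4 to 229633.6 CPM. Within the earlier runs the mitochondrial sums were 43103.8 to 54724.0 CPM in normal and 62480.8 to 78102.5 in vector samples, whose median over all runs was 6919.3. Vector samples of those runs held 1688.9 to 5822.2 CPM of neutrophil and 3693.7 to 5280.0 of erythroid markers. T cell (3 of 8 rose), macrophage (1 of 9 rose, 2 fell) and stromal markers (1 of 7 rose, 1 fell) passed in smaller numbers. No marker of these lists was at 0 throughout a group. The part of other cells, of handling and of the run in the results above was not tested.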

How the data were processed

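Per the labels' protocols, messenger RNA selected by its poly(A) tail was read on the Ion Proton platform. The deposited table holds unscaled counts of reads for each Ensembl gene. HTSeq, BWA 0.7.5a, Picard 1.119 and the builds mm9 and NCBIM37 are named in the submitters' processing notes; the sources used here do not give the counting strand. 5 lines that name no gene (43.0 to 62.9% of reads) stayed out of all steps. Gene names and exon lengths came from GENCODE vM21, promoters from RefSeq on GRCm38.p6.

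Genes were filtered with filterByExpr by group (17824 of 37620 kept), scaled by TMM and tested in 1 edgeR 4.0.16 quasi-likelihood fit of all 20 samples; calls are at a Benjamini-Hochberg adjusted p under 0.05. The SE of an edgeR log2 fold change was its size divided by the square root of the test's F statistic, not an SE given by the fit. Log2 CPM used a prior count of 2. Groups came from the labels. Runs were split at the largest gap in run number of each instrument, a rule that always gives an earlier and a later part. Exact permutations (scipy 1.17.1) gave correlation p-values. The scripts were tested on simulated data. Alternatives were DESeq2 1.42.0, other scalings, no filter, only the groups compared, the earlier runs, a run term and leaving out each library; counts without Myc replicate 5 in the lists and values of the 6 later-run vector samples were added after seeing the data.

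The members and lists were chosen with earlier results of these data known. Named genes are the 9 members, Myc, the 4 genes of smallest p of 3 lists between Myc and vector lymphomas, 17 fixed genes and the 2 genes most like each member.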

Additional observations from a re-analysis of the deposited data

Results flagged for a closer look

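Over 30 groups of 4 or 8 samples, 3 held a sample farther from its neighbours than Dixon's 95% limit; chance flags about 1 in 20 groups. Myc replicate 5 was lowest for Mdm2, at 4.51 log2 CPM (22.7 CPM), with the nearest Myc sample at 5.76. The same sample was lowest for Mdm4, at 1.91 log2 CPM (3.7 CPM), with the nearest at 5.33. Normal replicate 1, the only normal sample of the later runs, was lowest for Phlda3, at -0.14 log2 CPM (0.859 CPM), with the nearest at 0.58.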

How the results depend on the processing

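Counts of calls moved most within the earlier runs, where the 2 vector samples are also a title series of their own. Within the earlier runs 1363 genes were called between Myc and vector lymphomas (8654 in all samples), 123 between vector lymphomas and normal cells (1928) and 3820 between Myc lymphomas and normal cells (7025), and the called members were 2, 1 and 5. With a run term 3382, 1225 and 6578 genes and 5, 3 and 5 members were called. Between Myc and vector lymphomas Mdm2 and Phlda3 then lost their calls. Cdkn2a, Trp53, Cdkn1a, Zmat3 and Eda2r kept theirs (adjusted p from 0.0022 to 0.047, edgeR). Against normal cells Zmat3 lost its call in vector lymphomas (adjusted p = 0.22) and Mdm2 in Myc lymphomas (adjusted p = 0.067). In the same order of comparisons, the earlier runs called 5, 1 and 13 other p53 targets, 3, 0 and 7 p53 regulators, 2, 0 and 9 Arf regulators and partners, and 0, 0 and 1 ribosomal proteins. The earlier runs hold fewer samples, so the parts of sample number and of run in the loss of calls there cannot be told apart. Fitting only the 2 groups gave 3503 genes between vector lymphomas and normal cells and called 6, 4 and 5 members, without Eda2r in the first comparison and without Mdm2 in the last, and DESeq2 gave 9349, 2751 and 7970 genes.

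Leaving out 1 library gave 7866 to 8873, 1089 to 2979 and 4960 to 7398 genes, and 7, 3 to 4 and 5 to 7 members. Between vector lymphomas and normal cells the count was 2979 without Myc replicate 5, 1207 without normal replicate 1, 1089 without normal replicate 3 and 1118 without normal replicate 4. Signs reversed for values that had not passed or passed narrowly: Eda2r between vector lymphomas and normal cells was -0.18 in the earlier runs, Ccng1 between Myc lymphomas and normal cells was -0.08 with total-count scaling and -0.03 without Myc replicate 2 or 4 (up to 0.21 without replicate 5), Ppm1d was 0.01 in the earlier runs, and Usp7 was 0.13 there and 0.12 with a run term. The cause was not tested. Total-count scaling moved the median of all genes to -0.18 between vector lymphomas and normal cells and to -0.11 between Myc lymphomas and normal cells; Zmat3 then lost its call in the former (0.61, adjusted p = 0.14, edgeR). With DESeq2 or its scaling, Trp53 passed between Myc lymphomas and normal cells (adjusted p = 0.032 and 0.049). No paired analysis was possible because replicate numbers were given in accession order and pair no samples. Depth limited Eda2r, with at most 60 counts in a library.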
